A study of Mus musculus with 6 samples.

Results

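The catalytic and regulatory subunit genes of the serine/threonine phosphatases PP1 to PP6 were examined in primary mouse cortical neurons with Ribo-STAMP, a method in which a cytidine deaminase (rAPOBEC1) carried by the ribosome converts C to U in nearby RNA. The genes were chosen by a rule on their names, with earlier results of these data known. The rule took protein-coding genes whose symbol begins with *Ppp*, a digit from 1 to 6 and then c (catalytic) or r (regulatory). It left out *Ppp1r9a* and *Ppp1r9b*. This gave 73 of the 31053 genes listed for each library, of which 11 encode catalytic and 62 regulatory subunits. By enzyme there were 41 PP1, 16 PP2A, 5 calcineurin (PP2B, the *Ppp3* genes), 6 PP4, 1 PP5 and 4 PP6 genes. The value for each gene and library was EPR, the number of edits divided by the number of reads of that gene.

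The 6 libraries were bulk polyA RNA-seq of wild-type cortical neurons from C57BL/6J embryos at embryonic day 18, treated with floxuridine at day in vitro (DIV) 3 to limit dividing cells. Every culture was infected with AAV at DIV 6, induced with doxycycline at 1 µg per ml for 48 h and collected at DIV 14. In 3 libraries the deaminase was joined to the large-subunit protein RPL10A (RPL10A-STAMP) and in 3 to the large-subunit protein RPL22 (RPL22-STAMP), at opposite ends of the deaminase. A synapsin promoter drove the transactivator, so that expression was meant to be neuronal. No uninfected library was analysed here, and background edits were therefore not subtracted. The median EPR of the 8046 genes edited in all 6 libraries was 0.0120, 0.0153 and 0.0161 in the RPL10A-STAMP libraries and 0.00907, 0.0129 and 0.0112 in the RPL22-STAMP libraries. The reads behind a value are unknown, so no counting error can be given, and a value of 0 can stand for a gene without edits or without reads. All 6 neuronal marker genes examined (such as *Map2* and *Snap25*) were edited in all 6 libraries, with a summed EPR of 0.125 to 0.152 in the RPL10A-STAMP libraries and 0.108 to 0.142 in the RPL22-STAMP libraries. The 2 interneuron markers, *Gad1* and *Gad2*, were edited in all 6 libraries too. Their summed EPR did not overlap between constructs, at 0.0162 to 0.0208 with RPL10A-STAMP and 0.0300 to 0.0332 with RPL22-STAMP. Single neuronal markers did not overlap either, in both directions. *Map2* had 0.0230 to 0.0301 with RPL10A-STAMP against 0.0122 to 0.0169, and *Slc17a7* 0.0431 to 0.0542 against 0.0306 to 0.0411. *Syn1* had 0.0176 to 0.0208 against 0.0286 to 0.0374, and the remaining neuronal markers overlapped. Before scaling, 2765 of the 8046 genes did not overlap between constructs. Of 4 astrocyte markers, 3 were also edited in all 6 libraries, and the summed EPR was 0.0996 to 0.131 against 0.0825 to 0.138. None of 4 microglia markers was edited in all 6 libraries and 3 were at 0 throughout (*Csf1r*, *P2ry12* and *Tmem119*), whereas of 4 oligodendrocyte lineage markers 1 was edited in all 6 and *Mog* was at 0 throughout. The part of other cell types in the results was not tested. In bulk libraries, a change in which cells of the culture carry the edited RNA and a change in edits per read within a cell cannot be told apart.

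Protein phosphatases of this class remove phosphate from serine and threonine and oppose the kinases of the neuron. PP1 pairs a few catalytic subunits with a large set of regulatory proteins, each of which holds the enzyme at a place or blocks its active site. PP2A is a trimer in which a scaffold A subunit joins the catalytic C subunit to one of several B subunits (B55, B56, PR72 and striatin types), and the B subunit selects the substrate. Calcineurin joins a catalytic A subunit, which binds calmodulin, to the calcium-binding B subunit, and is known in neurons for linking calcium entry to NFAT signalling and to synaptic depression. PP4, PP5 and PP6 are related enzymes, of which PP4 and PP6 use their own regulatory subunits.

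Cytosines are the bases that the deaminase can convert, and the catalytic genes resemble one another. The coding stretch of 30 bases around the metal-binding signature that all 11 share is therefore shown for each, read 5′ to 3′ from the GENCODE mouse release 21 transcript (GRCm38, mm10), with every cytosine in capitals.
Ppp1ca: CtaCttCgtgggaaCCatgagtgtgCCagC
Ppp1cb: CttCtaagaggaaaCCatgagtgtgCtagC
Ppp1cc: CttCtCagagggaaCCaCgagtgCgCCagC
Ppp2ca: ataCtCCgagggaatCaCgagagCagaCag
Ppp2cb: atattgCgaggaaatCaCgaaagCCggCag
Ppp3ca: ttaCttCgCggaaaCCatgaatgtaggCaC
Ppp3cb: CttCtgagaggCaaCCatgaatgCagaCaC
Ppp3cc: CtgCttCgaggaaatCatgaatgCaggCat
Ppp4c: ttgatCCggggCaatCatgagagtCgCCag
Ppp5c: CtaCttCgaggCaaCCaCgagaCagaCaaC
Ppp6c: CttttaagaggaaatCatgagagtagaCag

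The stretch held 3 cytosines in *Ppp6c* and 10 in *Ppp1cc* and *Ppp5c*. The files give edits per gene and not per position, so where in a transcript the edits lay is not known. Of the PP1 genes, *Ppp1ca* lies at chr19:4192065-4195420, *Ppp1cb* at chr5:32458843-32517433 and *Ppp1cc* at chr5:122158278-122175273. Of the PP2A genes, *Ppp2ca* lies at chr11:52098681-52127778 and *Ppp2cb* at chr8:33599625-33619441. The calcineurin A genes *Ppp3ca*, *Ppp3cb* and *Ppp3cc* lie at chr3:136670124-136937727, chr14:20499364-20546573 and chr14:70217865-70289471. *Ppp4c* lies at chr7:126785866-126792496, *Ppp5c* at chr7:17004640-17027924 and *Ppp6c* at chr2:39194354-39226451. Within an enzyme the coding sequences of the catalytic genes were 72.6% to 81.7% identical, and the longest run shared by the transcripts of 2 such genes was 20 to 44 bases. By contrast, 85.6% of the 50-base runs of the *Ppp1cc* transcript occurred more than once in the genome, against 0% for *Ppp1ca* and 0.152% for *Ppp1cb*. The EPR of *Ppp1cc* is therefore uncertain, since the authors' alignment kept reads with several locations.

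Editing reached most of the catalytic and PP2A genes and a smaller share of the PP1 genes in all libraries. Of the 73 genes, 47 (64.4%) had an EPR above 0 in all 6 libraries, 12 in some and 14 in none. Among all protein-coding genes, 7923 of 21974 (36.1%) were edited in all 6. The split followed the enzymes: 15 of 16 PP2A genes, 4 of 5 calcineurin, 4 of 6 PP4, 1 of 1 PP5 and 4 of 4 PP6 genes were edited in all 6 libraries, against 19 of 41 PP1 genes. Of the 14 genes at 0 in every library, 13 encode PP1 regulators. They include *Ppp1r3a*, *Ppp1r3b* and *Ppp1r3g*, which direct PP1 to glycogen, and the small inhibitors *Ppp1r14a*, *Ppp1r14d* and *Ppp1r17*. The remaining one was *Ppp3r2*, the testis form of calcineurin B. No gene was edited in all 3 libraries of one construct and at 0 in all 3 of the other.

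The calcineurin genes had the highest median EPR of the 3 main enzymes. This median, taken over all 5 genes with zeros included, was 0.0224 ± 0.00221 (SD, n = 3) in the RPL10A-STAMP libraries and 0.0201 ± 0.00414 in the RPL22-STAMP libraries. The median over the 16 PP2A genes was 0.0101 ± 0.00166 and 0.00844 ± 0.000540, and that over the 41 PP1 genes 0.00538 ± 0.000843 and 0.00502 ± 0.00271. The calcineurin median lay above the PP2A median in 6 of 6 libraries, by 1.70 to 2.82 times, and above the PP1 median in 6 of 6, by 2.83 to 8.28 times. Over genes edited in all libraries it was 2.88 to 4.96 times the PP2A median and 2.43 to 3.34 times the PP1 median. The PP2A median lay above the PP1 median in 6 of 6 libraries when unedited genes were counted, but in 2 of 6 over the genes edited in all libraries. These are descriptions of few genes in the same libraries, with no test. A level here is in edits per read, so transcript length and RNA level do not enter it directly, and it was not corrected for the number of cytosines a transcript offers.

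**Figure D1:**
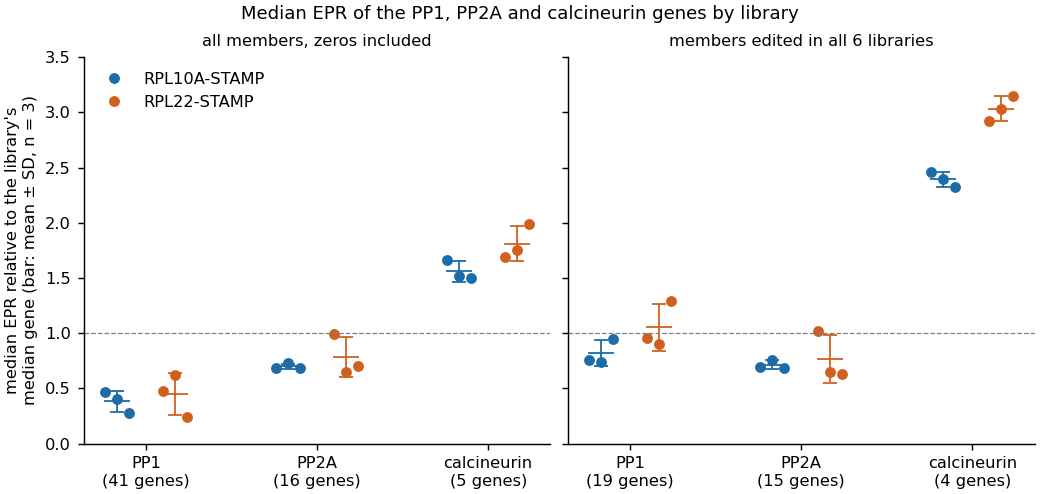
Median EPR of the PP1, PP2A and calcineurin genes in each library (points), divided by the library's median over the 8046 genes edited in all 6 libraries (dashed line at 1), with the mean and SD of 3 libraries per construct. The left panel counts unedited genes as 0 and the right panel holds the genes edited in all 6 libraries. Calcineurin lies above PP1 and PP2A in every library of both panels.

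Within calcineurin the genes spanned a wide range, and the median over the 5 genes was the value of *Ppp3ca* in every library. *Ppp3r1* (ENSMUSG00000033953, chr11:17159263-17200375), the calcineurin B gene of somatic tissues, had the highest mean EPR of the 47 genes edited in all libraries and exceeded 98.2% of the 8046 genes. Its EPR was 0.0949, 0.121 and 0.117 in the RPL10A-STAMP libraries and 0.0489, 0.0687 and 0.0601 in the RPL22-STAMP libraries. All 3 RPL10A-STAMP libraries were above all 3 RPL22-STAMP libraries. *Ppp3cb*, the calcineurin A beta gene, followed with 0.0389, 0.050 and 0.0509 against 0.0377, 0.0555 and 0.0484. These libraries overlapped before scaling. *Ppp3ca*, the A alpha gene that predominates in brain, had 0.0199, 0.0231 and 0.0242 against 0.0153, 0.0226 and 0.0224. *Ppp3cc*, the A gamma gene, had the lowest mean EPR of the 4 edited calcineurin genes, with 0.0160, 0.00596 and 0.0144 against 0.00424, 0.00456 and 0.00360. *Ppp3r1* overlaps the exons of *Wdr92* on the same strand over 14.3% of its exon bases, so some of its reads could have been counted for either gene.

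The PP1 catalytic genes had unequal levels in every library. *Ppp1cb* had an EPR of 0.0159, 0.0192 and 0.0215 in the RPL10A-STAMP libraries and 0.0179, 0.0253 and 0.0218 in the RPL22-STAMP libraries. *Ppp1cc* had 0.00904, 0.0177 and 0.0207 against 0.0147, 0.0178 and 0.0199. *Ppp1ca* had 0.00563, 0.00708 and 0.00762 against 0.00435, 0.00811 and 0.00463. *Ppp1cb* was above *Ppp1ca* in every library, by 2.71 to 2.82 times with RPL10A-STAMP and 3.11 to 4.72 times with RPL22-STAMP. *Ppp1cc* was also above *Ppp1ca* in every library, by 1.61 to 4.29 times. *Ppp1cb* was above *Ppp1cc* in every library as well, by 1.04 to 1.76 times, although the ranges of the 2 genes overlapped across libraries. *Ppp5c*, which carries its own regulatory repeats, was among the 3 genes with the lowest mean EPR of the 47, together with *Ppp1r21*, a gene of endosomal sorting, and *Ppp1r8* (NIPP1, a nuclear inhibitor of PP1). *Ppp4c* was edited in 5 libraries, with 0.0113, 0.00331 and 0.00898 against 0.00730, 0.00189 and 0, and was not tested.

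**Figure D2:**
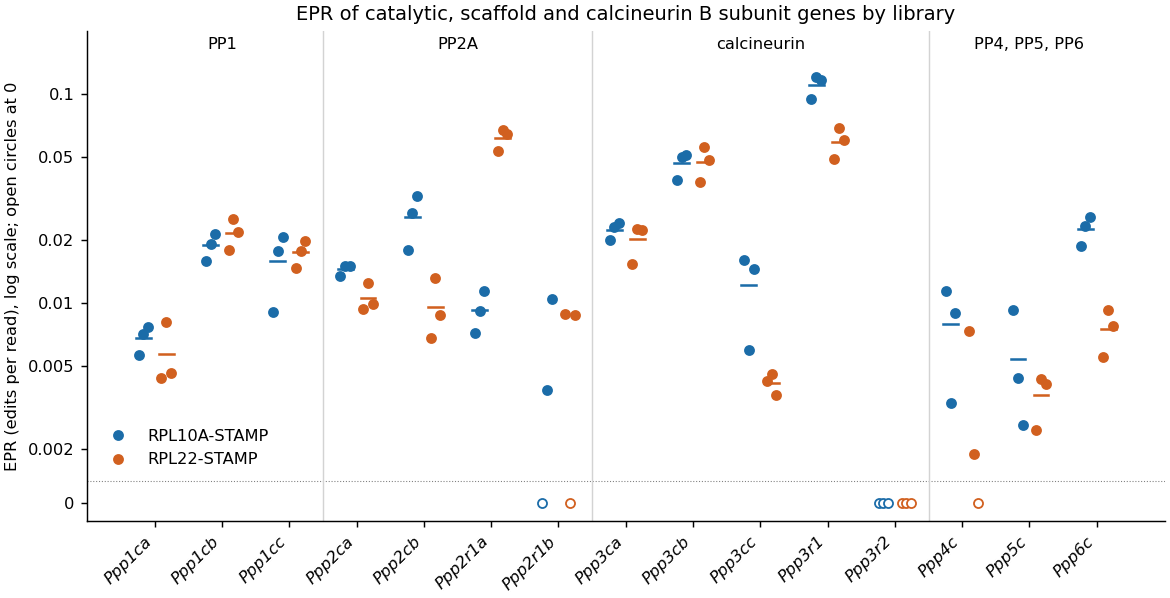
EPR on a log scale of the 11 catalytic genes, both PP2A scaffold genes and both calcineurin B genes in each RPL10A-STAMP (blue) and RPL22-STAMP (orange) library. Open circles under the dotted line are values of 0, and a horizontal line marks the mean where all 3 libraries of a construct were above 0. *Ppp3r1* is highest with RPL10A-STAMP (0.0949 to 0.121), and *Ppp2r1a* is at 0.00718 to 0.0113 in the RPL10A-STAMP libraries and 0.0531 to 0.0670 in the RPL22-STAMP libraries.

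The constructs were compared gene by gene to ask which phosphatase genes are read differently by the RPL10A and the RPL22 fusion. Values were scaled to each library's median, and log2(EPR + 0.01) was fitted with limma across the 8046 genes edited in all libraries, with p adjusted over all of them. Positive log2 fold changes mean a higher value with RPL10A-STAMP, and the added 0.01 makes a fold change smaller than the ratio of means for genes with low EPR. Of the 47 phosphatase genes tested, 9 (19.1%) passed the threshold, against 14.3% of all 8046 genes. In 6 the RPL10A-STAMP value was higher, against 8.51% of all genes, and in 3 the RPL22-STAMP value was higher, against 5.77%. The scaled libraries did not overlap between constructs in 23 of 47 genes, against 37.1% of all genes. The median log2 fold change of the 47 was -0.06, against -0.01 over all genes. The share that passed and the median lay near those of all genes, while the share without overlap was higher. An unadjusted limma p under 0.05 was found in 21 of the 47, against 30.9% of all genes. Whether these shares differ from those of all genes was not tested. Without scaling between libraries, the median of all genes moved from -0.01 to 0.18. Then 10 of the 47 phosphatase genes passed, 8 higher with RPL10A-STAMP and 2 with RPL22-STAMP. Of all 8046 genes, 1085 passed, 956 higher with RPL10A-STAMP and 129 with RPL22-STAMP. Among genes that passed, the share with RPL10A-STAMP higher went from 66.7% to 80% for phosphatase genes and from 59.6% to 88.1% for all genes.

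**Figure D3:**
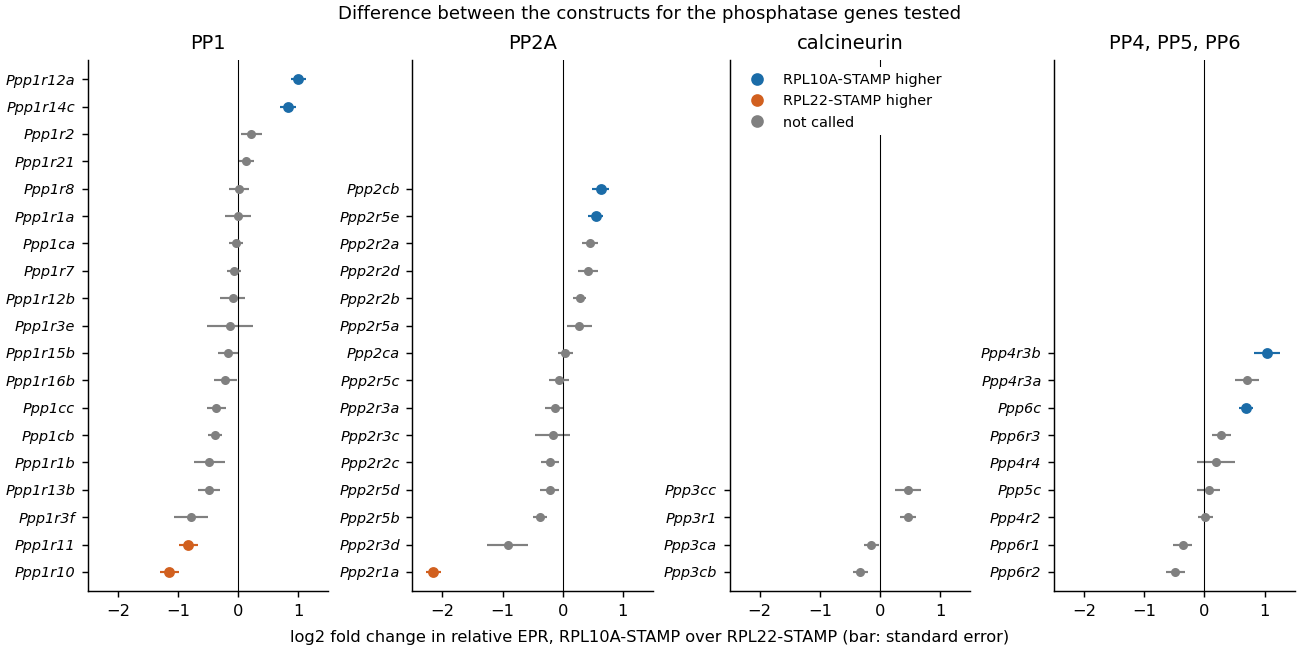
Log2 fold change (RPL10A-STAMP over RPL22-STAMP, on log2(scaled EPR + 0.01)) with its standard error for the 47 phosphatase genes edited in all 6 libraries, by enzyme. Genes past an adjusted p of 0.05 in limma are blue (6, RPL10A-STAMP higher) or orange (3, RPL22-STAMP higher). *Ppp2r1a* stands apart at -2.16, and none of the 4 calcineurin genes passed.

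*Ppp2r1a* (ENSMUSG00000007564, chr17:20945311-20965916, plus strand), the A alpha scaffold on which most PP2A trimers are built, differed most. Its EPR was 0.00718, 0.00916 and 0.0113 in the RPL10A-STAMP libraries and 0.0531, 0.0670 and 0.0641 in the RPL22-STAMP libraries. The lowest RPL22-STAMP library was far above the highest RPL10A-STAMP library. Relative to the library median the mean was 8.81-fold higher with RPL22-STAMP (log2 fold change -2.16, SE 0.13, limma adjusted p = 0.00165), which ranked 5 of 8046 genes toward RPL22-STAMP. It passed under all 15 alternative settings, with an adjusted p from 0.00130 to 0.0405. Of its 50-base runs, 3.22% recur in the genome, and its exons overlap those of no other gene listed for these libraries. The paralog *Ppp2r1b*, the A beta scaffold, had 0, 0.00382 and 0.0104 against 0.00881, 0 and 0.00877 and was not tested.

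The PP2A catalytic genes had other values. *Ppp2ca*, the C alpha gene, had an EPR of 0.0135, 0.0150 and 0.0150 in the RPL10A-STAMP libraries and 0.00938, 0.0124 and 0.00987 in the RPL22-STAMP libraries, which after scaling gave a log2 fold change of 0.04 (SE 0.12, limma adjusted p = 0.841). *Ppp2cb*, the C beta gene, had 0.0179, 0.0269 and 0.0324 against 0.00679, 0.0131 and 0.00875 and was 2.07-fold higher with RPL10A-STAMP (log2 fold change 0.63, SE 0.14, limma adjusted p = 0.0297). Neither set of *Ppp2cb* libraries overlapped the other. Scaffold and catalytic genes stood in opposite order in the libraries of the 2 constructs. The ratio of *Ppp2r1a* to *Ppp2ca*, taken within each library so that scaling cancels, was 0.533 to 0.756 in the RPL10A-STAMP libraries and 5.41 to 6.49 in the RPL22-STAMP libraries, and that of *Ppp2r1a* to *Ppp2cb* was 0.341 to 0.401 against 5.13 to 7.82. These ratios were formed after the values had been seen and have no test. The call of *Ppp2cb* was lost in 9 of 15 alternatives, among them the removal of RPL10A-STAMP replicate 1 (adjusted p = 0.0508), 2 (0.0931) or 3 (0.107) and of RPL22-STAMP replicate 1 (0.0706) or 3 (0.0818). *Ppp2ca* shares 39.9% of its exon bases with a gene on the opposite strand. The study's methods name a stranded library kit, but whether reads were counted by strand is not given in the sources used here.

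Among the PP2A B subunits, 1 of the 12 genes passed, against 14.3% of all genes. *Ppp2r5e*, the B56 epsilon gene (chr12:75450881-75596245), had an EPR of 0.0149, 0.0209 and 0.0234 in the RPL10A-STAMP libraries and 0.00732, 0.00833 and 0.00644 in the RPL22-STAMP libraries. It was 2.01-fold higher with RPL10A-STAMP (log2 fold change 0.55, SE 0.13, limma adjusted p = 0.0342), the gene nearest to the threshold among those that passed. The call was lost in 10 of 15 alternatives, among them removal of RPL10A-STAMP replicate 1 (0.0716), 2 (0.103) or 3 (0.115) and of RPL22-STAMP replicate 2 (0.0825) or 3 (0.0918), and with the trend of GC content removed (0.104). The other 4 B56 genes had log2 fold changes from -0.37 (*Ppp2r5b*) to 0.27 (*Ppp2r5a*). For the 4 B55 genes they ran from -0.21 (*Ppp2r2c*) to 0.45 (*Ppp2r2a*), and for the 3 PR72-type genes from -0.91 (*Ppp2r3d*) to -0.13 (*Ppp2r3a*). After scaling, the libraries of all 4 B55 genes did not overlap between constructs, against 37.1% of all genes, but those of *Ppp2r2c* overlapped before scaling. None of the 4 passed in limma, and 3 had an unadjusted p under 0.05, as had 30.9% of all genes. In all, 3 of 15 PP2A genes tested (20%) passed, against 14.3% of all genes, and the median log2 fold change was -0.06.

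Of the 19 PP1 genes tested, 4 (21.1%) passed, against 14.3% of all genes. Of the 4, 2 were higher with each construct, and the median log2 fold change of the 19 was -0.14. *Ppp1r12a* (chr10:108162193-108284475), which encodes MYPT1, the subunit that directs PP1 to myosin, had an EPR of 0.0262, 0.0379 and 0.0388 in the RPL10A-STAMP libraries and 0.00789, 0.0105 and 0.00737 in the RPL22-STAMP libraries. It was 3.02-fold higher with RPL10A-STAMP (log2 fold change 1.00, SE 0.13, limma adjusted p = 0.00524) and passed in all 15 alternatives, with an adjusted p from 0.00552 to 0.0463. Its paralog *Ppp1r12b* had 0.0108, 0.0236 and 0.0178 against 0.0162, 0.0112 and 0.0151 and overlapped between constructs (log2 fold change -0.09, limma adjusted p = 0.80). *Ppp1r14c*, an inhibitor of PP1 that is activated by phosphorylation (chr10:3366057-3464975), had 0.0219, 0.0260 and 0.0291 against 0.00728, 0.00880 and 0.00562. It was 2.69-fold higher with RPL10A-STAMP (log2 fold change 0.82, SE 0.14, limma adjusted p = 0.0114) and did not pass without RPL10A-STAMP replicate 3 (0.0520) or with the GC trend removed and the replicate block (0.0576). Part of its signal is uncertain, because 19.6% of its 50-base runs recur in the genome. In addition, 29.2% of its exon bases lie opposite another gene, and whether reads were counted by strand is not known.

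The other 2 PP1 genes that passed act in the nucleus or as inhibitors and were higher with RPL22-STAMP. *Ppp1r10* (chr17:35916434-35932283), which encodes PNUTS, a nuclear targeting subunit that acts at RNA polymerase II, had an EPR of 0.00171, 0.00293 and 0.00514 in the RPL10A-STAMP libraries and 0.0110, 0.0247 and 0.0144 in the RPL22-STAMP libraries. All RPL22-STAMP libraries were above all RPL10A-STAMP libraries, and the relative mean was 6.75-fold higher (log2 fold change -1.15, SE 0.16, limma adjusted p = 0.00631). Its call was lost in 1 of 15 alternatives, the GC trend removed together with the replicate block (0.0617). In *Ppp1r10*, 18.3% of the 50-base runs recur in the genome. *Ppp1r11* (chr17:36948356-36951741), which encodes inhibitor 3, had 0.00830, 0.0113 and 0.00777 against 0.0193, 0.0216 and 0.0166. It was 2.75-fold higher with RPL22-STAMP (log2 fold change -0.83, SE 0.15, limma adjusted p = 0.0164). Its call was lost in 4 alternatives, among them without scaling (0.0577) and without RPL10A-STAMP replicate 2 (0.0502) or 3 (0.0679). The other nuclear subunits had log2 fold changes of -0.07 (*Ppp1r7*) and 0.01 (*Ppp1r8*).

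None of the 3 PP1 catalytic genes passed in limma, and 1 had an unadjusted p under 0.05 (30.9% of all genes). The log2 fold changes were -0.39 for *Ppp1cb* (SE 0.12, limma adjusted p = 0.0704), -0.37 for *Ppp1cc* (SE 0.16, adjusted p = 0.173) and -0.04 for *Ppp1ca* (SE 0.11, adjusted p = 0.846). After the GC trend was removed, *Ppp1cb* passed at -0.74 (adjusted p = 0.0161), as it did after the length trend was removed (-0.48, adjusted p = 0.0404), whereas *Ppp1ca* turned to 0.25 and 0.093. Regulators of the eIF2 alpha phosphatase, which reverse the integrated stress response, were edited in all 6 libraries for *Ppp1r15b* (log2 fold change -0.17, limma adjusted p = 0.509) and in 4 for *Ppp1r15a*. The glycogen-targeting genes tested had log2 fold changes of -0.14 (*Ppp1r3e*) and -0.79 (*Ppp1r3f*), and neither passed.

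The small PP1 inhibitors that relay cAMP signals were edited at low levels and did not pass. *Ppp1r1a*, which encodes inhibitor 1, had an EPR of 0.00873, 0.00877 and 0.0105 in the RPL10A-STAMP libraries and 0.00870, 0.0117 and 0.00270 in the RPL22-STAMP libraries (log2 fold change -0.01, SE 0.22). *Ppp1r1b*, which encodes DARPP-32, had 0.00691, 0.00395 and 0.00599 against 0.00370, 0.00985 and 0.0186 (log2 fold change -0.48, SE 0.26, limma adjusted p = 0.260). Both overlapped between constructs, and *Ppp1r1b* spanned a wide range in the RPL22-STAMP libraries alone. *Ppp1r2*, which encodes inhibitor 2, had 0.0242, 0.0281 and 0.0249 against 0.0102, 0.0249 and 0.0145 (log2 fold change 0.22, SE 0.17), and 35.7% of its 50-base runs recur in the genome. Of the 12 phosphatase genes edited in some but not all libraries, 9 were PP1 genes, and the others were *Ppp2r1b*, *Ppp4c* and the PP4 regulatory gene *Ppp4r1*. *Ppp4r1* had 0.0106, 0.020 and 0.0283 against 0, 0.00937 and 0.0113 and was not tested.

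Of the 4 calcineurin genes tested, 0 passed in limma, against 14.3% of all genes. In limma, 2 had an unadjusted p under 0.05, against 30.9% of all genes. *Ppp3r1* came closest (log2 fold change 0.47, SE 0.13, limma adjusted p = 0.0570), followed by *Ppp3cb* (-0.33, SE 0.12, adjusted p = 0.120), *Ppp3cc* (0.47, SE 0.22, adjusted p = 0.194) and *Ppp3ca* (-0.15, SE 0.13, adjusted p = 0.475). With a pseudocount of 0.001, *Ppp3r1* passed (0.52, adjusted p = 0.0474). After the GC trend was removed, *Ppp3cb* passed instead (-0.71, adjusted p = 0.0198). The ratio of *Ppp3r1* to *Ppp3cb* was 2.31 to 2.44 in the RPL10A-STAMP libraries and 1.24 to 1.30 in the RPL22-STAMP libraries, and that of *Ppp3r1* to *Ppp3ca* was 4.76 to 5.23 against 2.69 to 3.19. The ratio of *Ppp3r1* to *Ppp3cc* was 5.92 to 20.3 against 11.5 to 16.7 and overlapped between constructs. These ratios were chosen after their values were seen and carry no test.

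Among the PP4, PP5 and PP6 genes, 2 of 9 tested (22.2%) passed, against 14.3% of all genes. Both were higher with RPL10A-STAMP. *Ppp4r3b* (chr11:29172890-29220797), a regulatory subunit of PP4, had an EPR of 0.0165, 0.0289 and 0.0417 in the RPL10A-STAMP libraries and 0.00642, 0.00804 and 0.00294 in the RPL22-STAMP libraries. It was 3.68-fold higher (log2 fold change 1.04, SE 0.21, limma adjusted p = 0.0228), the largest positive value among the 47 genes. Its call was lost in 9 of 15 alternatives, among them without RPL10A-STAMP replicate 2 (0.0703) or 3 (0.0724), without RPL22-STAMP replicate 2 (0.0501) or 3 (0.0626) and with the GC trend removed (0.0823). Its paralog *Ppp4r3a* was just outside the threshold, with 0.0180, 0.0178 and 0.0264 against 0.00230, 0.0115 and 0.00683 (log2 fold change 0.71, SE 0.20, limma adjusted p = 0.0570). *Ppp6c*, the PP6 catalytic gene, had 0.0188, 0.0233 and 0.0257 against 0.00548, 0.00923 and 0.00772. It was 2.34-fold higher with RPL10A-STAMP (log2 fold change 0.69, SE 0.12, limma adjusted p = 0.0137) and did not pass without RPL10A-STAMP replicate 2 (0.0509) or 3 (0.0600), with the replicate block (0.0513), with the GC trend removed (log2 fold change 0.25, adjusted p = 0.211) or with both (0.296). The PP6 regulatory genes had log2 fold changes of -0.36 (*Ppp6r1*), -0.48 (*Ppp6r2*) and 0.28 (*Ppp6r3*), none of which passed, and *Ppp5c* had 0.07 (adjusted p = 0.831).

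Transcript base composition moved with the difference between constructs. Across the 47 genes, transcripts richer in GC had lower log2 fold changes (Spearman's rho -0.510), as it did across 8039 genes with a known transcript (-0.467). The relation was -0.365 over the 19 PP1 genes, -0.529 over the 15 PP2A genes, -0.696 over the 37 regulatory genes and 0.0667 over the 10 catalytic genes. These are descriptions across genes, which share libraries and are not independent replicates. The values for the 47, PP2A and regulatory genes include *Ppp2r3d*, whose GC content of 72.9% was the highest of all genes tested. It came from a transcript of 450 bases, although the exons of the gene cover 4538 bases. The transcript used left out exon bases of other genes too. It had 2194 bases for *Ppp3ca* and 3355 for *Ppp1r12a*, whose exons cover 9981 and 8020 bases, whereas for *Ppp2cb* both were 1469. GC content and the share of recurring runs describe the transcript used alone. *Ppp6c* and *Ppp4r3b*, both higher with RPL10A-STAMP, had 38.4% and 40.1% GC, and *Ppp1r10* and *Ppp2r1a*, both higher with RPL22-STAMP, had 54.7% and 54.8%. *Ppp2cb* had 54.3% and was higher with RPL10A-STAMP. When each library's trend with GC content was removed, 663 of 8039 genes passed, 359 higher with RPL10A-STAMP and 304 with RPL22-STAMP. Of the 47 phosphatase genes, 8 passed, 3 higher with RPL10A-STAMP and 5 with RPL22-STAMP, of which 6 had passed before. *Ppp2r1a* and *Ppp1r12a* were among them.

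**Figure D4:**
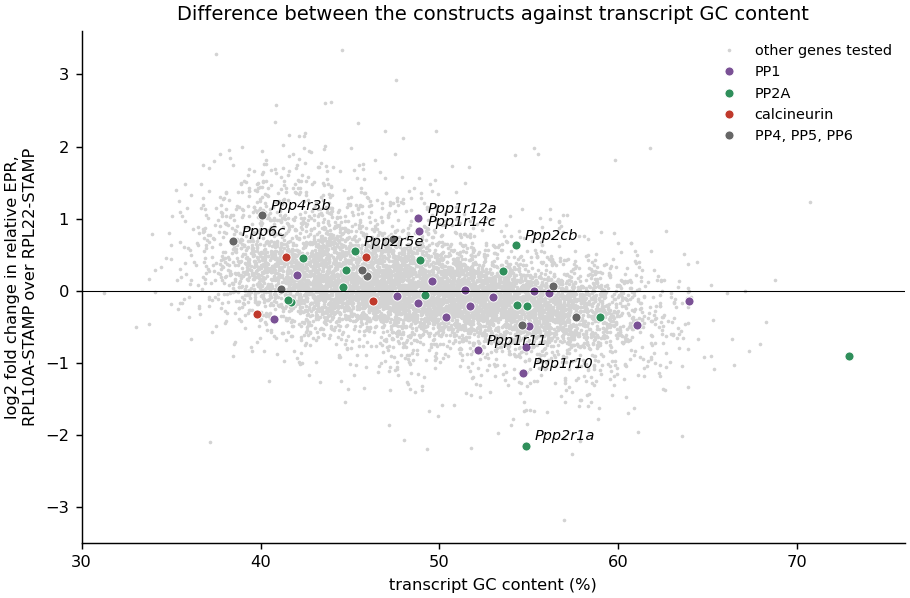
Log2 fold change (RPL10A-STAMP over RPL22-STAMP) against the GC content of the transcript in percent, for the genes tested (grey) and the 47 phosphatase genes coloured by enzyme, with the 9 genes that passed named. Values fall with GC content (Spearman's rho -0.510 over the 47 genes), and *Ppp2r1a* is the lowest of the 47 at -2.16.

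Partners of these phosphatases and the metal-dependent PPM phosphatases, all outside the naming rule, were compared in the same fit. These were 41 genes: calcineurin regulators and NFAT factors, PP2A regulators and striatins, PHACTR proteins of PP1, and the metal-dependent PPM phosphatases. Of the 41, 33 were edited in all 6 libraries and 4 of these (12.1%) passed, against 14.3% of all genes. *Strn3*, a striatin that serves PP2A as a B subunit, had an EPR of 0.0431, 0.0848 and 0.0829 in the RPL10A-STAMP libraries and 0.0113, 0.0135 and 0.0105 in the RPL22-STAMP libraries (log2 fold change 1.56, SE 0.18, limma adjusted p = 0.00453), and it passed in all 15 alternatives. *Ensa*, an inhibitor of PP2A with B55, had 0.00932, 0.00866 and 0.0110 against 0.0163, 0.0243 and 0.0223 and was higher with RPL22-STAMP (-0.87, SE 0.13, limma adjusted p = 0.00740), but not past the threshold without scaling (0.0527) or with the GC trend removed and the replicate block (0.0622). The phosphatases *Ppm1b* (log2 fold change 0.81, limma adjusted p = 0.0173) and *Ppm1e* (0.67, adjusted p = 0.0160) were higher with RPL10A-STAMP, and lost their calls in 4 and 6 of 15 alternatives. Without RPL10A-STAMP replicate 1, 2 or 3 the adjusted p was 0.0551, 0.0519 and 0.0681 for *Ppm1b* and 0.0525, 0.0551 and 0.0663 for *Ppm1e*. None of 6 calcineurin partner genes tested passed in limma, against 14.3% of all genes, and 0 had an unadjusted p under 0.05, against 30.9%. Their log2 fold changes ran from -0.58 to 0.05, and so few genes cannot be told from these shares.

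Across the 47 phosphatase genes, the number that passed ranged from 3 to 9 when 1 library was left out, against 9 with all libraries. Over all 8046 genes it ranged from 369 to 873, against 1149 with all libraries. Without RPL10A-STAMP replicate 3 the 3 were *Ppp2r1a*, *Ppp1r12a* and *Ppp1r10*, and without RPL10A-STAMP replicate 2 these and *Ppp1r14c* passed. Each construct has 3 libraries, called biological replicates in the study's methods and technical replicates in its text, and p-values measure the spread between these libraries.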

How the data were processed

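The samples were 6 bulk RNA-seq libraries, 3 per construct. The authors trimmed the reads, used STAR for alignment to mm10, SAILOR for edits and featureCounts for reads, and deposited the ratio of edits to reads per gene (EPR), not normalized between libraries. The libraries were made with a stranded kit, but the authors' gene annotation and the strand setting of the read counts are not given in the sources used here. GENCODE mouse release 21 held 31011 of the 31053 identifiers and gave symbols, gene types, coordinates and the transcript with the longest coding sequence.

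To scale the libraries, the median EPR of each over the 8046 genes with an EPR above 0 in every library was brought to the geometric mean of these medians. Differences were fitted with limma 3.58.1 (R 4.3.3; variance trend) on log2(EPR + 0.01), two-sided, with Benjamini-Hochberg adjustment and a threshold of 0.05. The script was tested on simulated data. Runs of 50 bases were searched on both strands of GRCm38. The naming rule took all catalytic, calcineurin B and scaffold genes, genes that passed, and the 3 highest and 3 lowest by mean EPR. Other genes are named as examples, after their values were seen. Members, lists and the filter were chosen with earlier results of these data known. Alternatives changed the pseudocount, scaling, filter, replicate block, GC and length trends, and left out each library.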

Additional observations from a re-analysis of the deposited data

How the results depend on the processing

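The number of libraries and the unknown reads behind each ratio limit these results. *Ppp2r1a*, *Ppp1r12a* and, of the partner genes, *Strn3* passed in all 15 alternatives, while *Ppp2cb*, *Ppp4r3b* and *Ppp2r5e* lost their calls in 9, 9 and 10. Where a value moved, the cause was not tested. Whether libraries with the same replicate number were prepared together is not given in the sources used here. After scaling, their deviations from the mean of each construct had correlations of 0.0437, 0.0464 and -0.00546. These values cannot decide it, since scaling removes a shift shared by a whole library. A replicate block left 603 of all genes, 5 phosphatase genes and 1 PP2A gene past the threshold. All genes that passed numbered 754 when an EPR above 0 in at least 3 libraries was required, 569 with no filter, 663 with the GC trend removed, 227 with the GC trend removed and the replicate block, and 369 to 873 with 1 library left out. With the GC trend removed and the replicate block, 2 phosphatase genes, 1 PP1, 1 PP2A and 1 partner gene passed. With 1 library left out, 3 to 9 phosphatase, 2 to 5 PP1, 1 to 2 PP2A and 2 to 4 partner or PPM genes passed. Under either wider filter 1 PP2A gene passed. With a pseudocount of 0.001 and with the GC trend removed, 1 calcineurin gene passed. Median log2 fold changes without scaling were 0.10 for PP1, 0.15 for PP2A and 0.37 for calcineurin genes (0.365). The calcineurin median was 0.022 with a pseudocount of 0.1, -0.059 with the GC trend removed (also with the block), 0.21 with the length trend removed and 0.046 to 0.17 with 1 library left out. Over genes edited in all 6 libraries, the median EPR with RPL10A-STAMP and RPL22-STAMP was 0.0119 and 0.0116 for PP1 and 0.0345 and 0.0337 for calcineurin genes. Some small log2 fold changes that had not passed turned sign. *Ppp1ca* was 0.10 without scaling, 0.25 with the GC trend removed (also with the block), 0.093 with the length trend removed and -0.093 to 0.027 with 1 library left out. *Ppp1r8* was -0.031 with a pseudocount of 0.001 and -0.11 to 0.15 with 1 library left out. *Ppp2ca* was -0.15 with the GC trend removed (also with the block), -0.079 with the length trend removed and -0.00016 to 0.078 with 1 library left out. *Ppp3ca* was 0.11 without scaling, and *Ppp5c* was -0.14 to 0.21 with 1 library left out.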
